A study of Mus musculus with 5 samples.

Results

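The 38 genes described here encode the machinery that fills, docks, fuses and retrieves synaptic vesicles, and they were examined for peaks of histone H3 acetylated at lysine 9 (H3K9ac) in striatal progenitor cells that express mutant huntingtin. Peaks belonged to a gene when their centre lay within 10 kb of any of its annotated transcript starts. By this rule 79 of the 34286 peaks called in DOP-treated cells and 75 of the 33355 peaks called in untreated cells were at one of the 38 genes, out of 22380 protein-coding genes in the annotation. The cells were STHdh Q111, a conditionally immortalized mouse line of C57BL/6 background with mutant huntingtin on both alleles (STHdhQ111/Q111). All cells were kept in medium without serum for 24 h, and they received either vehicle (untreated, labelled Q111 SST, 2 samples) or 4 mM 4-deoxypyridoxine hydrochloride (DOP, labelled Q111 DOP, 2 samples), an inhibitor of the sphingosine-1-phosphate lyase. A sample precipitated with normal rabbit IgG from untreated cells was the negative control, and it was not analysed here. The study used these libraries to look for genes that a rise of H3K9ac after DOP may regulate. Each condition is represented by 1 peak list called by the authors, here the DOP list and the untreated list, so every difference given here is a difference between 2 lists, with no replicate error and no test, and fewer cells with the mark cannot be told apart from less of the mark per cell.

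A synaptic vesicle is loaded with transmitter by a vesicular transporter, tethered at the active zone by large scaffold proteins, and primed for fusion. SNARE proteins on the vesicle and on the plasma membrane then zip together, calcium-binding synaptotagmins trigger the fusion, and NSF with its SNAP adaptors takes the spent SNARE complexes apart. Many of these proteins are made almost only in neurons, whereas others have close relatives that serve membrane fusion in every cell. H3K9ac is a mark of nucleosomes that flank the start sites of active genes, and it is usually strongest just downstream of the start.

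Promoters of 5 members are shown as examples of members with and without a peak. Each line gives the 200 bases upstream of the first annotated start in the mm9 genome, 5' to 3' on the strand of the gene, with CG dinucleotides in capitals. Snap25 and Syt1 had no peak in either list, Unc13a a weak one, Snap23 a strong one and Vamp3 one of the strongest.
Snap25, chr2:136538989-136539188, plus strand: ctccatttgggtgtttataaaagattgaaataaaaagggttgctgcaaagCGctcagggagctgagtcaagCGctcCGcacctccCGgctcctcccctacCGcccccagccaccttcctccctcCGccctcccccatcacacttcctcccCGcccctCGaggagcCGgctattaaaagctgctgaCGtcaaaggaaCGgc
Syt1, chr10:108448039-108448238, minus strand: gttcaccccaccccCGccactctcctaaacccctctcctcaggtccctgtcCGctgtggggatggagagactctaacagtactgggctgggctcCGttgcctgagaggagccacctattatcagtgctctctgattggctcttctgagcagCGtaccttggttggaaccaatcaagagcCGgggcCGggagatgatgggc
Unc13a, chr8:74195657-74195856, minus strand: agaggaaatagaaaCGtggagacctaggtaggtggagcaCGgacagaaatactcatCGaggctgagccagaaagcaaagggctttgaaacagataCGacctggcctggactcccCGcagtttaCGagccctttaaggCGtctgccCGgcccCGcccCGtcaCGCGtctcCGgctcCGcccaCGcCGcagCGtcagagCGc
Snap23, chr2:120393207-120393406, plus strand: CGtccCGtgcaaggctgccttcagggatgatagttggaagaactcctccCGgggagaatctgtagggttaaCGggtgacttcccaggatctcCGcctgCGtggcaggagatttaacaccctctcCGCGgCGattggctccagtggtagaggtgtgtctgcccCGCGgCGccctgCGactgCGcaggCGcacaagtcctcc
Vamp3, chr4:150432073-150432272, minus strand: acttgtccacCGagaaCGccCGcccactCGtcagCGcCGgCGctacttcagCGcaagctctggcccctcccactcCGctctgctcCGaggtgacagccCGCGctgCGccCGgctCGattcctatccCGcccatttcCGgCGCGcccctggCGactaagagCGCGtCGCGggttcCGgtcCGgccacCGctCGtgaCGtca
The stretch of Snap25 holds 11 CG dinucleotides, that of Snap23 15, that of Syt1 6, that of Unc13a 18 and that of Vamp3 29. Of members not printed, Napb has 5, Vamp1 6, Syt11 7, Napa 13, Unc13b 13 and Vamp2 18. Their highest DOP peaks nearest to a start of the gene itself were at percentiles 69.2, 71.8, 90.2, 91.7, 7.31 and 98.4 of the scores. That of Syt11 was at an internal start.

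Markers of cell types were looked up in the same way. None of 5 annotated neuron markers (Rbfox3, Tubb3, Dcx, Elavl3 and Elavl4) had a peak within 10 kb of a start in either list. Of 6 neural progenitor markers, Sox9, Vim and Msi1 had peaks in both lists, and Nes, Sox2 and Pax6 had none. All 4 fibroblast or mesenchymal markers (Col1a1, Col1a2, Twist1 and Pdgfrb) had peaks in both lists. Of the glial markers, Mbp (myelin basic protein) had DOP peaks, the highest at percentile 7.58 of the scores in that list, and 0 of 3 astrocyte markers had a peak. The progenitor label was thus met by 3 of its 6 markers. The part that the cell type has in the results below was not tested.

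Of the 38 genes, 22 had a peak in the DOP list, which is 57.9% (95% Wilson interval 42.2% to 72.1%, counting error only), and 57.7% of all protein-coding genes had one. In the untreated list 23 members had a peak, or 60.5% (44.7% to 74.4%), against 56.9% of all protein-coding genes. The same 22 members carried peaks in both lists and the untreated list added Rims1, so that 23 members had a peak in either list, against 59.3% of all protein-coding genes. The share of these genes with H3K9ac was therefore close to that of all genes in both lists. The remaining 15 members had no peak in either list.

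A peak within 10 kb can belong to a neighbouring gene, so each peak was also assigned to the protein-coding gene with the nearest start. Peaks whose nearest start was that of the member itself are called own-start peaks. They numbered 52 of 79 in the DOP list and 47 of 75 in the untreated list. The other 27 and 28 peaks lay nearest to another gene, at 11 members. For example, Sv2a, a vesicle glycoprotein, had 6 DOP and 4 untreated peaks, but 4 and 3 of them were nearest to Sf3b4, between 7936 and 9022 bp from the start of Sv2a. Likewise 3 of 6 DOP and 5 of 8 untreated peaks of Vamp2 were nearest to the circadian gene Per1. Every member with a peak had an own-start peak, 22 with DOP, 23 without and 23 in either list, and of all genes 52.3%, 51.4% and 54.2% had one.

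**Figure D1:**
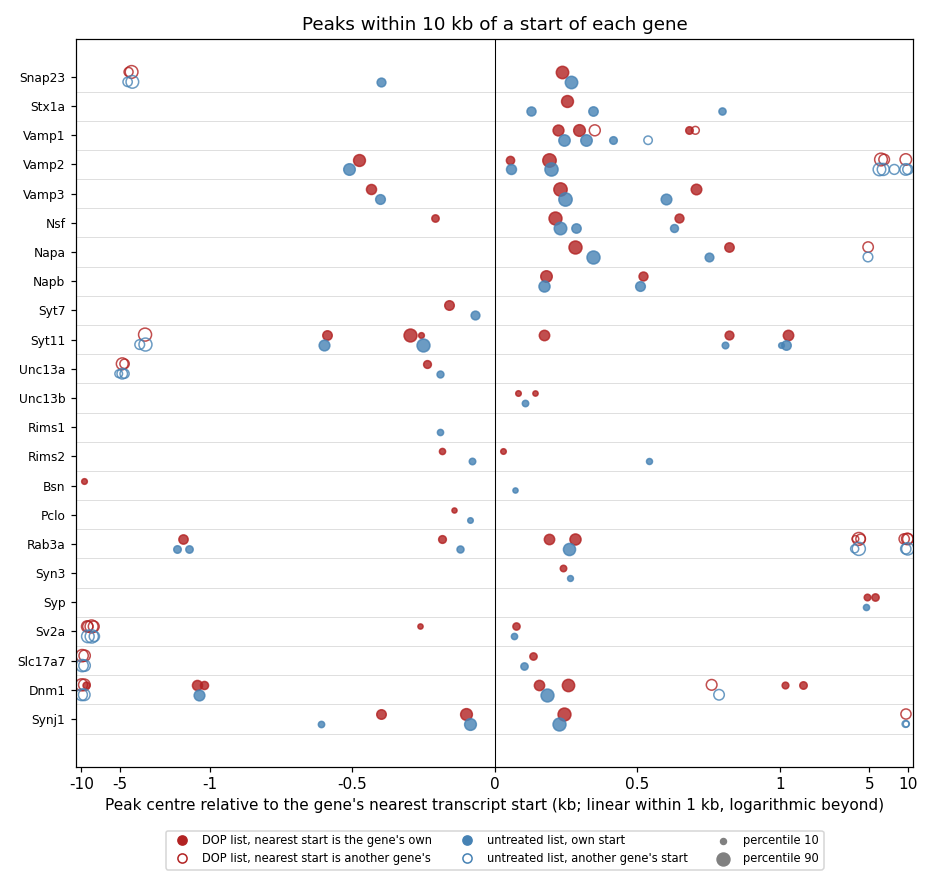
Positions of all peaks within 10 kb of the 23 members that have one. Each row is a gene, the horizontal axis is the distance of the peak centre from the gene's nearest transcript start in kb (positive is downstream, linear within 1 kb and logarithmic beyond), and the size of a circle grows with the score percentile within its list. Filled circles are nearest to the gene's own start and open circles to another gene's, and most filled circles sit within 1 kb of the start.

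The height of a peak is given as the percentile of the authors' score within its own list. A percentile is the rank of the score from the lowest, as a share of all peaks in that list, with tied scores given their average rank. What the score counts is not stated in the lists, and the depth behind it is unknown. Among peaks with no other peak chained within 1 kb, 97.9% had a whole-number score in each list, against 30.5% of the DOP and 30.3% of the untreated peaks that had such neighbours. The highest own-start peak of a member had a median percentile of 66.6 over 22 members in the DOP list and 42.2 over 23 members in the untreated list, beside 74.4 and 73.3 over all genes. Taken gene by gene over the 22 members with own-start peaks in both lists, the median difference was 1.70 percentile points higher with DOP, and over all genes it was 0.866 points. Members were found at both ends of this scale. In the DOP list 8 of 22 lay above percentile 75, where 49.0% of all genes with an own-start peak lay, and 8 of 22 lay below percentile 25, where 10.1% of all genes lay. In the untreated list 9 of 23 lay above percentile 75 (47.7% of all genes) and 10 of 23 below percentile 25 (10.4% of all genes).

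**Figure D2:**
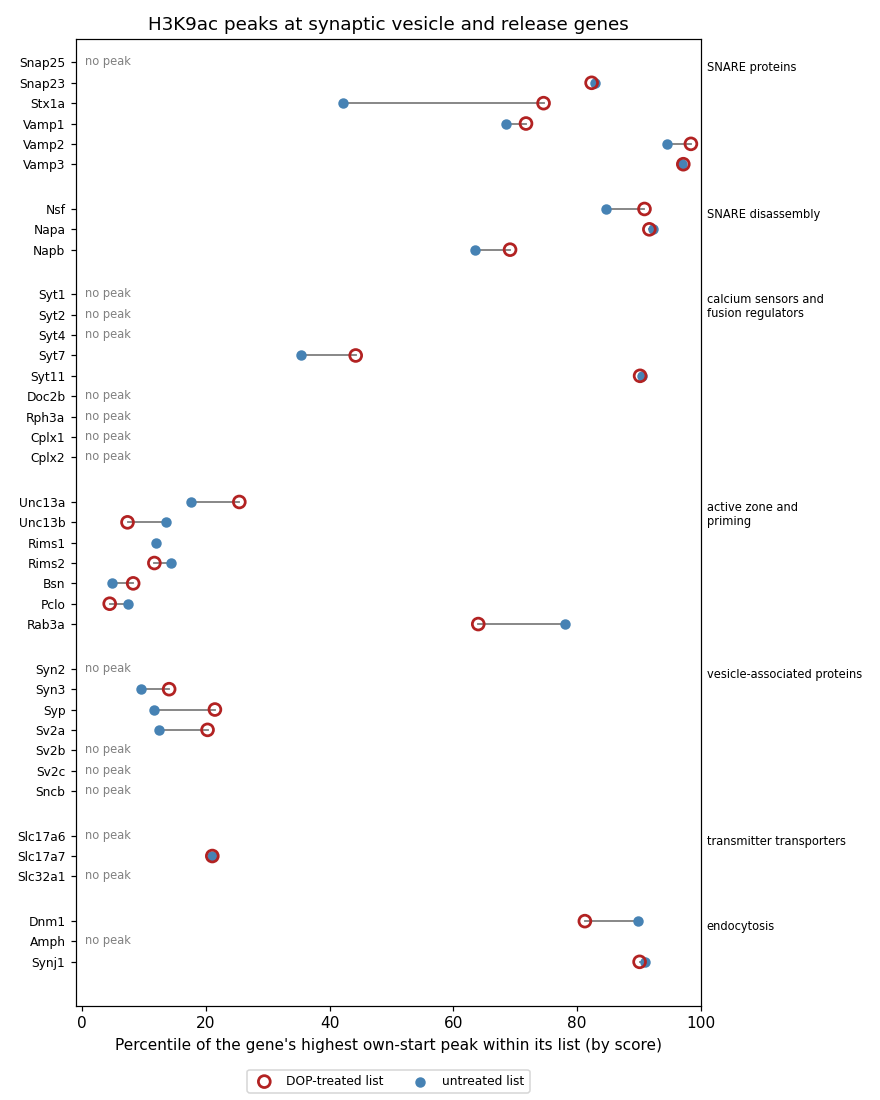
Highest own-start peak of each of the 38 genes, as the percentile of its score within the DOP list (open red circles) and the untreated list (filled blue circles), with genes grouped by role. Both circles lie above percentile 60 for the SNARE disassembly genes and for Dnm1 and Synj1, below percentile 26 for Unc13a, Unc13b, Rims2, Bsn and Pclo, and 15 genes have no peak.

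The 2 highest-ranking own-start peaks of the members were at SNARE genes. Vamp2, which encodes synaptobrevin of the vesicle membrane, had its highest own-start peak at chr11:68902137-68902336 (mm9), 191 bp downstream of a start, in the DOP list, with a score of 1793 at percentile 98.4. In the untreated list the corresponding peak lay 199 bp downstream and scored 1318 at percentile 94.5. Vamp3 (cellubrevin), the relative of Vamp2 that works in membrane traffic of most cell types, had 3 own-start peaks in each list. Its highest peak scored 1579 in the DOP and 1588 in the untreated list, at percentiles 97.2 and 97.1. Vamp1, the third vesicle-membrane SNARE of the group, reached percentile 71.8 with DOP and 68.5 without. It carried own-start peaks at 2 of its starts in each list, near chr6:125165796-125165995 and chr6:125181417-125181616 (DOP intervals, mm9). Tapbpl starts beside the second of them, and 2 further DOP peaks and 1 untreated peak there were nearest to Tapbpl.

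Snap25 and Snap23 encode plasma-membrane SNAREs of neurons and of most other cells, respectively, and they stood at opposite ends. No peak lay within 10 kb of any of the 3 starts of Snap25. The nearest peak was 34.6 kb away in the DOP list and 178 kb away in the untreated list. Snap23 had an own-start peak at chr2:120393612-120393811 (mm9), in an intron 237 bp downstream, with a score of 873 at percentile 82.4 in the DOP list, and one 267 bp downstream with a score of 858 at percentile 82.8 in the untreated list. A further untreated peak of Snap23 lay 398 bp upstream at percentile 35.5, and the nearest DOP centre was 702 bp from it.

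Stx1a, the syntaxin that pairs with Snap25 at nerve terminals, was divided into different numbers of peaks in the lists. In the DOP list it had 1 peak, at chr5:135499583-135499782 (mm9) in an intron, 252 bp downstream of the nearest start, with a score of 721 at percentile 74.6. In the untreated list 3 peaks lay 127, 343 and 799 bp downstream, with scores of 303, 333 and 163. The highest of them ranked at percentile 42.2, which is 32.4 percentile points below the DOP peak. Summed over the gene the scores were 721 with DOP (1 interval, 200 bp covered) and 799 without (3 intervals, 600 bp covered). The single highest peak was thus higher with DOP and the sum was higher without.

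All 3 genes that act in SNARE disassembly had own-start peaks in both lists. Nsf, the ATPase that pulls SNARE complexes apart, scored 1138 at percentile 90.9 with DOP and 905 at percentile 84.7 without. Its adaptor Napa (alpha-SNAP), which is made in all tissues, scored 1172 and 1182, at percentiles 91.7 and 92.2. The brain form Napb (beta-SNAP) scored 635 and 537, at percentiles 69.2 and 63.5. These 3 genes had summed log2 ratios of DOP over untreated scores between 0.07 and 0.17, where the median of all genes was 0.10.

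Among the 9 calcium sensors and fusion regulators, 2 had a peak. Syt1 and Syt2, the fast calcium sensors of transmitter release, had none, and neither did Syt4, Doc2b, Rph3a, Cplx1 or Cplx2. The nearest peaks to a start of Syt1 were 304 kb away in both lists. Syt7, a slower sensor that also acts in lysosome exocytosis, had 1 peak in each list, 160 bp upstream of the nearest start with a score of 367 (percentile 44.2) in the DOP list and 71 bp upstream with a score of 278 (percentile 35.4) in the untreated list. Syt11, a synaptotagmin that does not bind calcium, had 6 own-start peaks with DOP and 5 without, spread over several starts. The highest lay 297 bp upstream of an internal start with a score of 1108 in the DOP list and 251 bp upstream of it with a score of 1100 in the untreated list, at percentiles 90.2 and 90.4.

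The active zone and priming genes had peaks, but nearly all of them were low. Rab3a, a small GTPase of the vesicle surface, was the exception, with a highest own-start peak at percentile 64.0 in the DOP list (score 565) and 78.1 in the untreated list (score 757). As at Stx1a, the number of peaks at the start differed. Here 2 DOP peaks 190 and 282 bp downstream of the nearest start faced 1 untreated peak at 262 bp. The priming factor Unc13a had a peak at percentile 25.4 with DOP (score 214) and 17.6 without (score 147), 237 and 193 bp upstream of its start. Its relative Unc13b, which is also made outside the brain, had DOP peaks with scores of 79.2 and 65.8, and 1 untreated peak with a score of 117, at percentile 13.6. The paralog with the wider expression had the lower peak in both lists, unlike in the Snap25 and Snap23 pair.

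The scaffold genes of the active zone lay at the foot of both lists. Pclo (Piccolo) had 1 peak in each list just upstream of its start, with scores of 56.0 and 72.0, at percentiles 4.43 and 7.34. Bsn (Bassoon) had 1 peak in each list at different places. The DOP peak lay in an intron, 9556 bp upstream of the nearest start (score 86.0, percentile 8.22), and the untreated peak lay in the 5' UTR, 72 bp downstream of a start (score 53.0, percentile 4.85). Rims2 had peaks at an internal start in both lists, at percentiles 11.6 and 14.3. It also had an untreated peak 541 bp downstream of another start at percentile 10.5, with the nearest DOP centre 11000 bp away. Rims1, which encodes the scaffold RIM1, had 1 untreated peak 193 bp upstream of an internal start (score 105, percentile 11.96) and no DOP peak, so it was the single member with a peak in one list only. A peak in the untreated list only was found at 2.73% of all genes with a peak, and in the DOP list only at 4.03%, where 0 of 23 members were. By own-start peaks the counts were the same, 1 and 0 of 23, beside 3.49% and 5.22% of all genes with an own-start peak.

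Of the vesicle-associated proteins, 3 of 7 had a peak. Syn3, a synapsin, scored 130.0 with DOP and 88.0 without. Sv2a had 1 shared own-start peak in the 5' UTR, with scores of 176 and 108, and a DOP peak 263 bp upstream with a score of 62.9 at percentile 5.14. Syp (synaptophysin, an abundant protein of the vesicle membrane) had no peak at its first start but had peaks 4763 and 5482 bp downstream of the nearest start in the DOP list (chrX:7225699-7225898, in a coding exon, and chrX:7226418-7226617, in an intron, mm9), with scores of 138 and 185, and 1 untreated peak at 4723 bp with a score of 102. In all 3 genes the highest own-start peak was below percentile 25 of both lists. Syn2, Sv2b, Sv2c and Sncb (beta-synuclein) had no peak.

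Of the transmitter transporters, Slc17a7 (VGLUT1, glutamate) had an own-start peak in the 5' UTR in both lists, with scores of 182 and 170.0 at percentiles 21.0 and 20.9. Slc17a6 (VGLUT2) and Slc32a1, the GABA and glycine transporter used by striatal projection neurons, had none. The nearest peaks to Slc32a1 were 14.4 kb (DOP) and 14.5 kb (untreated) from a start, the shortest distance among the 15 members without a peak. These distances had a median of 79.4 kb in the DOP list and 98.1 kb in the untreated list.

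In endocytosis, Synj1 (synaptojanin, a lipid phosphatase that takes part in the loss of the clathrin coat) scored 1105 and 1123 at percentiles 90.1 and 90.9, 243 and 226 bp downstream of the nearest start. Dnm1 (dynamin-1, the neuronal GTPase that cuts vesicles from the membrane) had 7 own-start peaks with DOP and 2 without, which was the widest gap among the members. The highest was 258 bp downstream of the nearest start with a score of 849 in the DOP list (percentile 81.3), beside 446 for a second event 156 bp downstream. In the untreated list the same place held 1 peak at 185 bp with a score of 1077 (percentile 89.8). A start of Ciz1, a nuclear protein gene, lies close to this promoter, and 3 DOP and 3 untreated peaks of Dnm1 were nearest to Ciz1. Amph (amphiphysin) had no peak.

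Inside Dnm1, 3 peaks were in the DOP list only and lay far from any untreated peak. They were centred 1523 and 1098 bp downstream and 9228 bp upstream of internal starts, with scores of 194, 146 and 160.0 and percentiles of 22.6, 16.2 and 18.03. The nearest untreated centres were 2734, 2309 and 11267 bp away. The first lies in a coding exon and the others in introns.

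Over all members, 13 of 79 DOP peaks overlapped no untreated peak, which is 16.5% (9.88% to 26.1%), and 16.2% of all DOP peaks within 10 kb of a gene had no such overlap. In the untreated list the numbers were 10 of 75, or 13.3% (7.41% to 22.8%), against 13.3% of all. Among own-start peaks, 12 of 52 were DOP only, at 9 members, which is 23.1% (13.7% to 36.1%) beside 16.2% of all. Of the untreated ones, 6 of 47 at 6 members overlapped no DOP peak, or 12.8% (5.98% to 25.2%) beside 13.3% of all. A peak of the other list was centred within 1 kb of 7 of the 12 and 3 of the 6. Their median percentile was 21.4 with DOP and 12.4 without, beside 22.0 and 22.6 for all one-list peaks near genes. The highest of them was a DOP peak of Syt11 at percentile 54.3, centred 435 bp from an untreated peak.

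The remaining own-start one-list peaks lay close to starts and mostly beside a peak of the other list. A DOP peak 208 bp upstream of Nsf (percentile 21.4) was 468 bp from an untreated centre. DOP peaks 682 bp downstream of a start of Vamp1 (percentile 23.3) and 54 bp downstream of a start of Vamp2 (score 248) were 267 and 565 bp from one. The Syt11 peak 259 bp upstream of an internal start, in a 5' UTR at percentile 8.62, was the exception among them, with the nearest untreated centre 1375 bp away. At Synj1 a DOP peak lay 400 bp upstream (score 366, percentile 44.1) and an untreated peak 609 bp upstream (score 112, percentile 12.9). Their centres were 209 bp apart, so each counted as a one-list peak of its list. Whether they were 1 event at a shifted place was not tested.

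The other 5 one-list peaks were nearest to a neighbouring gene. At Rab3a, 6 of 10 DOP and 4 of 8 untreated peaks were nearest to Mpv17l2 or Ifi30. One-list peaks near Ifi30 lay 9332 bp downstream of the nearest Rab3a start with DOP (percentile 52.3) and 9605 bp downstream without (percentile 53.2), 273 and 260 bp from a centre in the other list. The remaining 3 were untreated. They were nearest to Gon4l beside Syt11 (percentile 46.1, 321 bp from a DOP centre), Gm9933 beside Unc13a (percentile 24.2, 316 bp) and Per1 beside Vamp2 (percentile 47.6, 1299 bp).

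Examples of one-list own-start peaks with no peak of the other list centred within 1 kb are shown. Each line is the called interval of 200 bp on the plus strand of mm9, 5' to 3', with CG dinucleotides in capitals. The Bsn and Dnm1 intervals are from the DOP list, and the Rims2 interval is from the untreated list.
Bsn, chr9:108022201-108022400, plus strand: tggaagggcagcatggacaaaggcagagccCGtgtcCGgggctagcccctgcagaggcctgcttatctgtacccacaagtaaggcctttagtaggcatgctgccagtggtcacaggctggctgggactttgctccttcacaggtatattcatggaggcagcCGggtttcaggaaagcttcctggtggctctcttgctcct
Dnm1, chr2:32171229-32171428, plus strand: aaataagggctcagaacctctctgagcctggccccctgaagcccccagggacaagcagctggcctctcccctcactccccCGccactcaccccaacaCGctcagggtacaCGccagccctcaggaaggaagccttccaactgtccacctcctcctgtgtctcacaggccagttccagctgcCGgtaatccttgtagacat
Dnm1, chr2:32171654-32171853, plus strand: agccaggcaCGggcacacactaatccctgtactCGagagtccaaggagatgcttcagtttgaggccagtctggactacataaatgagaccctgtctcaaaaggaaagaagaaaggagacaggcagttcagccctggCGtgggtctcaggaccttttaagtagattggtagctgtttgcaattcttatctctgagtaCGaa
Dnm1, chr2:32185230-32185429, plus strand: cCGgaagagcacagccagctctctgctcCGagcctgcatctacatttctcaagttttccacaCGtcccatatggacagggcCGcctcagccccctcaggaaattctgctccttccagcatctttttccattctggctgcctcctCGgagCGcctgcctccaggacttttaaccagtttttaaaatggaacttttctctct
Rims2, chr15:39030326-39030525, plus strand: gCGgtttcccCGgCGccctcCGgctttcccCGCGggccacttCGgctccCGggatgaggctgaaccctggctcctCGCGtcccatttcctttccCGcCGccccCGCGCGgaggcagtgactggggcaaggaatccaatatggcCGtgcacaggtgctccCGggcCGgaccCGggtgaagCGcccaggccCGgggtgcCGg
The DOP intervals hold 3, 4, 4 and 6 CG dinucleotides, and that of Rims2 holds 22. Over all own-start peaks of the members in one list only, the median GC content was 53.2% for the 12 DOP and 62.2% for the 6 untreated peaks. Shared own-start peaks had 62.8% and 63.0%. Own-start peaks of all genes had 60.5% with DOP and 61.0% without, and their one-list peaks were not measured apart.

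More peaks in the DOP list were found at 6 of the 23 members with a peak (32.5% of all genes with a peak), fewer at 6 (28.5%), and equal numbers at 11 (39.0%). Dnm1 (10 against 5), Sv2a (6 against 4), Rab3a (10 against 8), Stx1a (1 against 3) and Vamp2 (6 against 8) differed by 2 or more. By own-start peaks alone 5 members had more with DOP (30.1% of all genes with such a peak), 3 had fewer (26.6%) and 15 had equal numbers. When all peaks within 10 kb that ranked in the top 50% of each list were counted, 9 of 15 members had more with DOP. Fewer were found at 1 member, and the shares of all genes were 25.2% and 20.1%. This count includes peaks nearest to another gene. At Napa, Sv2a, Synj1 and Vamp1 the additional DOP peak was nearest to a neighbour, and so was the additional untreated peak at Vamp2.

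To set the lists beside each other with less weight on how events were divided, the scores of all own-start peaks of a gene were summed. The sum was higher in the DOP list for 18 of the 22 members with own-start peaks in both, where 67.0% of all genes had the higher sum with DOP. The median log2 ratio was 0.21 over the members and 0.10 over 11079 genes. It fell to 0.10 over 21 members when only shared peaks were summed, where all genes had 0.09. This sum was higher with DOP at 18 of the 21 members, beside 68.9% of all genes. With own-start peaks within 1 kb of a start the median was 0.18, beside 0.09 over all genes. Of 20 members 16 were then higher with DOP, beside 66.3% of all genes. With the highest own-start peak alone, 14 of 22 members were higher with DOP, beside 62.9% of all genes, and the median was 0.13 beside 0.09. The central 90% of all genes lay between -0.35 and 0.67. At 4 members the DOP sum was at least 1.5 times the untreated one (6.93% of all genes), and at 0 members it was as much lower (1.95%). These 4 were Syp with a log2 ratio of 1.66, Sv2a with 1.15, Bsn with 0.70 and Dnm1 with 0.65.

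All 4 had peaks at places where the untreated list had none, which enter the sum. At Syp the covered length was 400 bp with DOP and 200 bp without, and the mean score per peak was 162 and 102. At Sv2a it was also 400 and 200 bp, with mean scores of 120 and 108. The shared own-start peak of Sv2a taken alone scored 176 with DOP and 108 without. At Dnm1 1264 bp were covered with DOP and 400 bp without, and the mean score was lower with DOP, 351 against 782. Sums this much higher were more frequent at low-scoring genes. Among all genes with a mean highest percentile under 25, 24.4% had a sum at least 1.5 times higher with DOP, and 3 of 9 such members did. Any higher sum with DOP was found at 77.9% of these genes and at 7 of the 9 members. By the percentile of the highest own-start peak, Stx1a was at least 10 points higher with DOP (15.0% of all genes) and Rab3a at least 10 points lower (8.41% of all genes).

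**Figure D3:**
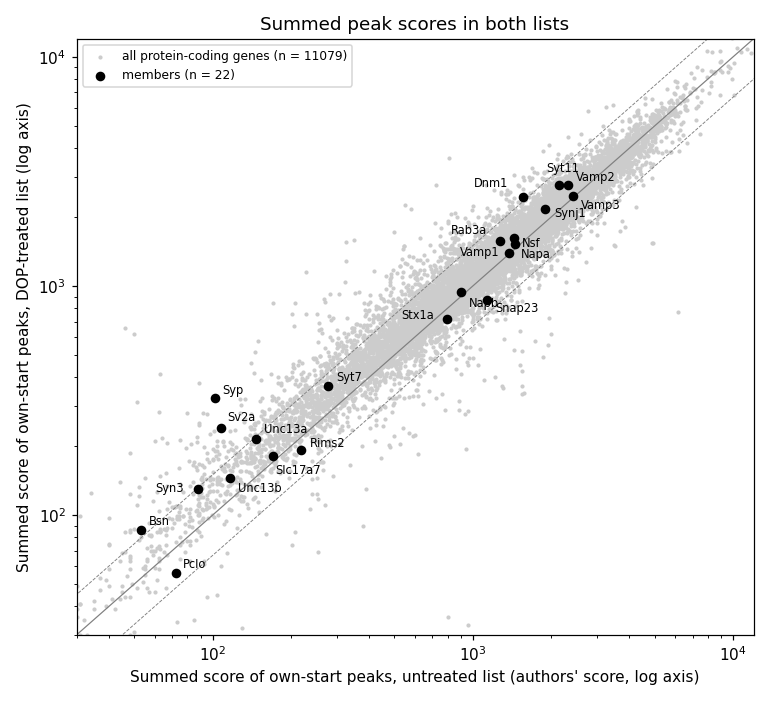
Summed score of own-start peaks per gene in the untreated list (horizontal) and the DOP list (vertical), both in the authors' score on log axes, for 22 members (black) and all 11079 protein-coding genes with own-start peaks in both lists (grey, of which 23 lie outside the axes). The solid line marks equal sums and the dashed lines a 1.5-fold difference, and Syp, Sv2a, Bsn and Dnm1 lie above the upper dashed line.

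Most own-start peaks lay close to a start. The counts that follow were not made over all genes, for which the median position alone is given. Within 1 kb of a start lay 42 of 52 DOP and 41 of 47 untreated own-start peaks, and 33 and 31 were centred downstream of it. The median position was 164 bp downstream with DOP and 185 bp without, beside 201 and 208 bp for all genes. By the gene's own annotation, introns held the most of them, 31 with DOP and 29 without. The 5' UTR held 6 in each list, coding exons 5 and 2, exons of non-coding transcripts 2 in each, and 8 in each lay outside the gene.

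The promoters at the first start of members with and without a peak had close medians of base composition, whereas over all genes these medians lay far apart. A peak at any start of a gene counted, so a window of a gene with a peak need not carry H3K9ac itself. Rims1 (ratio of observed to expected CpG 0.12) and Syp (0.38) had peaks only away from their first start. In 300 bases around the first start (250 before and 50 after), the median ratio of observed to expected CpG was 0.71 in the 23 members with a peak and 0.69 in the 15 without. Over all genes it was 0.76 with an own-start peak and 0.23 with none. A ratio above 0.6 was found in 15 of 23 members with a peak (65.2%) and in 8 of 15 without (53.3%). Over all genes the shares were 70.6% with an own-start peak and 14.9% without. Doc2b had the highest ratio of the members without a peak, 0.94, and Syt1 the lowest, 0.34. The median GC content was 62.0% in both sets of members, and 60.3% and 48.7% in all genes with and without a peak.

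**Figure D4:**
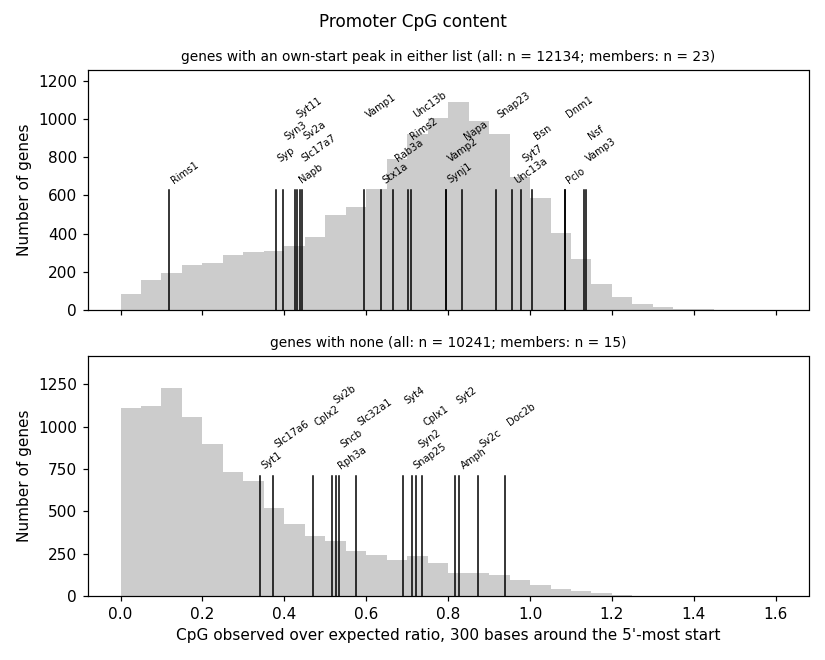
Ratio of observed to expected CpG in 300 bases around the first start (horizontal) for all protein-coding genes (grey bars, number of genes), above for genes with an own-start peak in either list and below for genes with none. Black lines mark the 23 and 15 members, and in the lower panel they lie between 0.34 and 0.94 while most genes lie to the left of 0.34.

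Short motifs were counted in the same 300 bases on both strands. The GC box GGGCGG occurred in 27 of 38 members (71.1%) and in 43.4% of all promoters, and the sequence CANNTG in 27 members (71.1%) and 69.6%. TGACG, a part of the cAMP response element, occurred in 12 members (31.6%) and in 23.3% of all promoters. Parts of the RE1 element, the binding sequence of the repressor REST at many neuronal genes, were found in few members. CAGCACC occurred in 5 members (13.2%; 6.65% of all promoters) and GGACAGC in 3 (7.89%; 7.06%), and both were found in Rph3a and Unc13a. CAGCACC was present in 3 of the 15 members without a peak (Rph3a, Sv2c and Syt4) and in 2 of the 23 with one (Napa and Unc13a). The GC box was found in 16 of 23 members with a peak (69.6%) and in 11 of 15 without (73.3%), beside 62.5% and 20.8% of all genes with and without one. These are matches of letters and not binding sites.

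Other genes of vesicle release and membrane fusion that were not among the 38 were counted in the same way. Of 62 annotated genes in this list, 39 had a peak within 10 kb in the DOP list and 35 in the untreated list, where 57.7% and 56.9% of all genes had one. An own-start peak was found at 35 (56.5%) and 30 (48.4%), where 52.3% and 51.4% of all genes had one. Their median highest percentile in the DOP list was 69.6, beside 74.4 over all genes. The genes without a peak included the release regulators Cplx3, Cplx4, Rims3, Rims4 and Unc13c. Those with an own-start peak above percentile 90 in both lists were Dnajc5, Erc1, Sh3gl1, Dnm2, the dynamin of most cell types, and Picalm, a clathrin adaptor. Dnajc5 was the highest, at percentiles 97.6 with DOP and 98.2 without.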

How the data were processed

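H3K9ac ChIP-seq libraries from STHdh Q111 cells were made by the authors, 2 per condition, and sequenced from one end. The study's methods name Bowtie 2, while the submitters' processing notes name BWA 0.7.10, and both give the mm9 genome. Events were called with GPS (the lists' header names GEM). The authors deposited 1 list per condition, with a score for each event whose definition, normalization and threshold are not given in the sources used here. The lists hold more peaks than the study's text counts, and the threshold between them is not stated, so low-scoring peaks may include ones that the study did not use. How the samples and the IgG control entered the call is not stated either, so depth per sample and replicate error are unknown.

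From these lists, peak centres (the fourth column) were assigned to all transcript starts of protein-coding genes in GENCODE vM1 (NCBIM37, which is mm9) within 10 kb. Peaks were shared when intervals overlapped by at least 1 bp, and score percentiles were taken within each list. Wilson intervals at 95% cover the counting of peaks or genes only. Sequences were read from the NCBIM37 genome. No peak ran past the end of a chromosome. The functions were tested on simulated data. All steps ran in Python 3.11.15, tables in pandas 2.3.3 on numpy 2.4.6, intervals in scipy 1.17.1 and plots in matplotlib 3.10.9.

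The 38 genes, the gene lists and the rule for named genes were chosen with earlier results of these data known. All members were accounted for, and given in full were those with a peak in one list only, those with a peak unmatched in the other list, those whose peak numbers differed by 2 or more, the highest of each role group, and pairs of paralogs. Of 64 further pathway genes 62 were found in the annotation, and of 6 neuron markers 5. Summed scores and their alternatives were added after seeing the data. Other windows, start sets, score thresholds, sharing rules and chaining were tried as alternatives.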

Additional observations from a re-analysis of the deposited data

How the results depend on the processing

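No paired analysis was possible because no replicate can be separated within either list, and leaving out replicates was not possible either. Of 69 values under an alternative, 40 stayed within 1.5 times the reported value and 29 did not. With a window of 1 kb there were 45 DOP and 43 untreated peaks near members, of which 7 and 6 were in one list only. Members with untreated peaks only then numbered 2 (Bsn and Rims1), and also 2 with a window of 5 kb, with starts of protein-coding transcripts alone, or with scores of at least 100, where 1 member (Syn3) had DOP peaks only. Given to the nearest gene, the peaks numbered 52 and 47, the untreated-only peaks 6, and the members with fewer DOP peaks 3. In the top 50% of each list, 14 members had an untreated peak, 44 and 35 peaks remained, 7 and 3 were in one list only, 1 member had fewer DOP peaks, 1 (Stx1a) had DOP peaks only and 0 untreated peaks only. Reciprocal overlap of 50% gave 24 DOP-only and 21 untreated-only peaks, and centres within 500 bp gave 7 and 6. Counted as clusters chained within 1 kb, 2 members had more with DOP and 3 fewer. The median log2 ratio of summed scores was 0.10 with shared peaks alone and 0.13 with the highest own-start peak alone, and all genes had 0.09 in each. Narrower windows and score limits leave fewer peaks by construction, and the cause of the other shifts was not tested. Depth is unknown, so how far low-scoring peaks can be trusted could not be assessed.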

Other observations

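Among the 62 further genes of vesicle release and membrane fusion, 35 had an own-start peak in either list. At 5 of them it was found with DOP only (5.22% of all genes with an own-start peak), and at 0 without DOP only (3.49%). They were Snap47, a SNARE relative, Syt17, a synaptotagmin relative, the vesicle GTPase Rab3b, and Rab27a and Rab27b, GTPases of secretory granules. Their highest DOP percentiles were 14.5, 25.3, 4.30, 11.6 and 18.8. Within 10 kb, Snap47 had 4 and Rab27a 3 untreated peaks that were nearest to another gene, so these were not genes with DOP peaks only. Syt17, Rab3b and Rab27b had no untreated peak within 10 kb. Among the 38 genes described above, the counts by own-start peaks were 0 with DOP only and 1 without DOP only. With 1 list per condition these differences have no replicate check.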
